A study of Mus musculus with 15 samples.

Results

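Among the regions that held the cohesin subunit Rad21 in both replicates, 3840 lay at distal active chromatin without CTCF, out of 30959 shared regions in all (12.4%). They are called members here. A shared region was a merge of Rad21 peaks of replicates 1 and 2, overlapping by at least 1 bp, that held a peak of each. Members were selected on the peak calls of all 3 targets: no CTCF peak, overlap with an H3K27ac region shared by both H3K27ac replicates, and more than 2000 bp from every protein-coding transcription start site (TSS). Of the 30959 regions, 10559 (34.1%) had no CTCF peak and 7604 of those lay in shared H3K27ac, so members were 36.4% of CTCF-free regions and 50.5% of CTCF-free regions in H3K27ac. The number depended on the lists: Rad21 replicate 2 alone gave 7576 members and Rad21 replicate 1 alone gave 5176. A −log10 q of at least 5 left 2204 members when asked of the Rad21 peaks and 581 when asked of the H3K27ac peaks.

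The cells were CD69-negative CD4+CD8+ thymocytes from the thymus of wild type C57BL/6 mice, immature T cells that have not yet received a selection signal. ChIP-seq peak lists were used for Rad21 (2 replicates), CTCF (1 sample) and H3K27ac (2 replicates), all from wild type cells. The series of 15 samples also holds 8 Hi-C samples, of wild type, CTCF-/- and CTCF-/-,Rad21-/- cells, and 2 input samples, which were not analysed here. The lists hold no read counts, which leaves library depth unknown, and whether each replicate came from another animal is not stated in the labels. Values are therefore given for each Rad21 list, with the SD between both lists (n = 2) where they are averaged; that spread may be technical. No test was made between classes of region, because regions of 1 library are not replicates and there are only 2 lists. Unpaired, 2 lists against 2 cannot give a two-sided exact permutation p below 0.333.

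Cohesin is a ring of Smc1, Smc3, Rad21 and a Stag subunit that is loaded on chromatin with the help of Nipbl and extrudes DNA into loops. CTCF binds a long directional DNA motif and holds cohesin there, so that loop anchors often carry both proteins. H3K27ac, an acetylation of histone H3, marks active promoters and active enhancers. Enhancers are clusters of transcription factor sites that act on promoters at a distance. In double-positive thymocytes, factors of the RUNX, ETS, TCF/LEF and E protein families bind many such enhancers, among them those of the T cell receptor and coreceptor genes.

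Members differ in the DNA under the Rad21 summit, so windows reaching 100 bp to either side of the replicate 1 summit base are shown, read from NCBIM37, the assembly shown as mm9, plus strand, 5′ to 3′. Capitals mark matches, on either strand, to the ETS core GGAAGT, the RUNX core TGTGGT, the E-box of E proteins in its form CAGCTG and its second form CAGGTG, and the TCF/LEF core CTTTGA. The first windows belong to 3 of the 5 members with the highest ranks by Rad21 fold in both lists: chr3:21834986-21835186 nearest to Tbl1xr1, chr1:191654847-191655047 in an intron of Ptpn14 and chr16:55949173-55949373 nearest to Cep97.
Tbl1xr1: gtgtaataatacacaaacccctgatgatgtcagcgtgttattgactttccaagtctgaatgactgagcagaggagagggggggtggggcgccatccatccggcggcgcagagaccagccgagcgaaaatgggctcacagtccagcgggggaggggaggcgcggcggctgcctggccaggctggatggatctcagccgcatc
Ptpn14: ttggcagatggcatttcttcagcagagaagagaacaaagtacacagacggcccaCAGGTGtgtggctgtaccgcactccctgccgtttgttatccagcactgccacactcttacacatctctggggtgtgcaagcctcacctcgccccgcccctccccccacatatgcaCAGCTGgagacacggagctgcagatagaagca
Cep97: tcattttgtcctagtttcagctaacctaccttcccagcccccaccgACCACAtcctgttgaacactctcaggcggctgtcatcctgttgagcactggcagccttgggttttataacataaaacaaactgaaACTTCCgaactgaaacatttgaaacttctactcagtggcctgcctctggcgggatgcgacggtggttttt
The Tbl1xr1 window held none of these motifs and was 61.2% G or C. The Ptpn14 window held 2 E-boxes, and the Cep97 window 1 RUNX and 1 ETS core.

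A second set shows the highest-ranked member at genes that define the double-positive stage: Cd8a (chr6:71326786-71326986, exonic), Cd4 (chr6:124832309-124832509, intronic), Bcl11b (chr12:109159397-109159597, intronic) and Ets1 (chr9:32553617-32553817, intronic). Rag1 and Rag2, which encode the recombinase of the antigen receptor genes, were nearest to no member.
Cd8a: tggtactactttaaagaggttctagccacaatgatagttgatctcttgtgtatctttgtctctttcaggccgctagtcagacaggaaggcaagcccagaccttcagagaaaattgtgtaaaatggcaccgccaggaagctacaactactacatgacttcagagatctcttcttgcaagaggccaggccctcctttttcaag
Cd4: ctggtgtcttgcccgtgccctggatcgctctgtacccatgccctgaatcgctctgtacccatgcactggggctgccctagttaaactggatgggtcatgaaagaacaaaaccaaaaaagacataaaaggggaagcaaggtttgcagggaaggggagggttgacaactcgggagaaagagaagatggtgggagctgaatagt
Bcl11b: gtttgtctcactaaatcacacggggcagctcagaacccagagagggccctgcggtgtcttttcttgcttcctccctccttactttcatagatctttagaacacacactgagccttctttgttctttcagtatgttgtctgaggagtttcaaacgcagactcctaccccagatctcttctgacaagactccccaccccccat
Ets1: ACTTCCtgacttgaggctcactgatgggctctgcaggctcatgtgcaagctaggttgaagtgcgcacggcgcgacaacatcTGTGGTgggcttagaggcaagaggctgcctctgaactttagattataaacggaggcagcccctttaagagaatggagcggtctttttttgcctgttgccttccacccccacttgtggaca
Only the Ets1 window among these 4 held a match, with 1 ETS and 1 RUNX core. A match is a description of letters and not evidence of binding, and no match says only that these letters are not in the window.

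The third set shows how the motifs that were frequent over all members can stand together. This was itself uncommon: 134 of the 3840 list 1 windows held an ETS core, a RUNX core and an E-box in either form. These are the 3 highest-ranked members whose window held an ETS core, a RUNX core and the E-box CAGCTG, picked after the motif shares were known: chr5:118810190-118810390 nearest to 2410131K14Rik, chr17:80382013-80382213 nearest to Hnrpll and chr14:26336816-26337016 in an intron of Zmiz1.
2410131K14Rik: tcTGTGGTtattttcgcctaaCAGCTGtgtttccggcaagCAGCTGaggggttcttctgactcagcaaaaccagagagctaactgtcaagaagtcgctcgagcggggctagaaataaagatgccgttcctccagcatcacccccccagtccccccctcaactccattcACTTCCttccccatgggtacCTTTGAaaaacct
Hnrpll: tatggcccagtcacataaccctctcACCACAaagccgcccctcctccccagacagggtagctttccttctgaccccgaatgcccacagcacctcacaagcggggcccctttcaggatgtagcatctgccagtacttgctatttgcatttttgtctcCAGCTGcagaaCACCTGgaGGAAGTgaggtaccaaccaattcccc
Zmiz1: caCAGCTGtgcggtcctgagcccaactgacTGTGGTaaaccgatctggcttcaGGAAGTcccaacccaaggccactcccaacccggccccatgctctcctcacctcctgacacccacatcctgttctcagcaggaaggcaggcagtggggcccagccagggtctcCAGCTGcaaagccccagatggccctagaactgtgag
The Rad21 folds of these members in lists 1 and 2 were 17.6 and 22.8 nearest to 2410131K14Rik, 18.6 and 20.5 nearest to Hnrpll, and 16.2 and 19.9 at Zmiz1.

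Over all members, the E-box, ETS and RUNX letters were concentrated at the Rad21 summit. This did not hold for all lymphoid factors searched, as given below for the Ikaros and GATA cores. The E-box CAGCTG was in 29.97% ± 0.63 of member summit windows, against 10.98% ± 0.046 of windows of the same length centred 1000 bp to either side (SD over the Rad21 lists, n = 2). The second E-box form CAGGTG was in 34.3% ± 0.46 of summit windows and 15.2% ± 0.28 of flanking windows. The ETS core was in 27.97% ± 0.44 of summit windows and 12.1% ± 0.12 of flanking windows. The RUNX core was in 29.0% ± 0.79 of summit windows and 16.1% ± 0.12 of flanking windows. These 4 differences lay between 12.9 and 19.1 percentage points. Both lists were scored on the same member regions, so the SD leaves out the spread from choosing regions by a single list. With regions from Rad21 replicate 2 alone and then replicate 1 alone, the CAGCTG difference was 14.2 and 16.9 points. The ETS core gave 14.5 and 14.2 points, and the RUNX core 9.60 and 11.2. The TCF/LEF core gave a smaller difference of 5.64 ± 0.32 percentage points, with 18.5% of summit windows and 12.9% of flanking windows. Matches of different motifs can share letters, as where the E-box CAGCTG runs into a RUNX core.

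The same letters were less concentrated in the other classes of shared Rad21 region. For the RUNX core the summit minus flank difference was +12.9 ± 0.67 percentage points in members, against −2.05 ± 0.085 at CTCF-free active promoters, +4.99 ± 0.16 at CTCF-bound distal active regions and +9.43 ± 0.37 at CTCF-free regions without H3K27ac. For the E-box CAGCTG it was +18.99 ± 0.58 in members, against +5.01 ± 0.66 at those promoters, +9.0 ± 0.30 at CTCF-bound distal active regions and +4.88 ± 0.060 without H3K27ac. For the ETS core it was +15.9 ± 0.32 in members, against +9.73 ± 0.14, +5.50 ± 0.19 and +4.59 ± 0.14 in the same order of classes. For the TCF/LEF core members were at +5.64 ± 0.32, against −5.43 ± 0.69 at promoters, +0.07 ± 0.65 at CTCF-bound distal active regions and −1.02 ± 0.26 without H3K27ac. For the KLF/SP box GGGCGG the difference was +6.18 ± 0.27 in members, against +33.6 ± 0.50 at promoters, +5.78 ± 0.21 at CTCF-bound distal active regions and +5.14 without H3K27ac. It was in 9.82% of member summit windows and 45.7% of promoter summit windows. Base composition moved with these classes, since the median G and C content of summit windows was 50.7% in members, 62.7% to 63.2% at promoters, 51.2% at CTCF-bound distal active regions and 48.3% without H3K27ac. Its part in the motif shares was not tested.

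**Figure D1:**
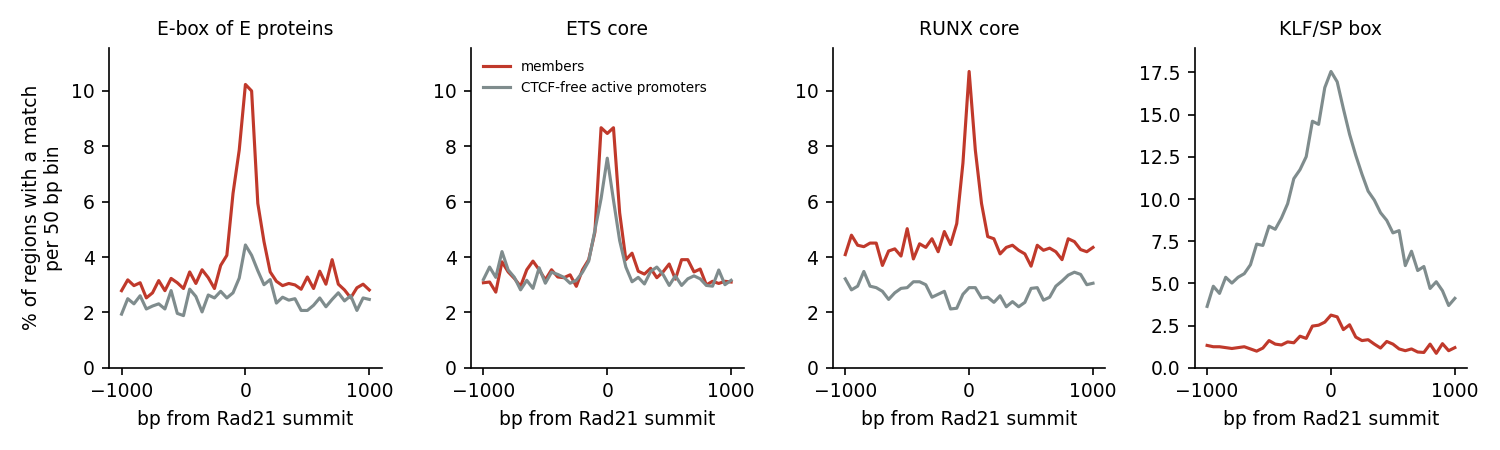
Percent of regions with a match to each motif, in bins of 50 bp by distance from the replicate 1 Rad21 summit, for members (red) and CTCF-free active promoters (grey); the KLF/SP panel has its own vertical scale. Members peak at the summit for the E-box, the ETS core and the RUNX core, the RUNX core shows no peak at promoters, and the KLF/SP box is far more frequent at promoters.

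The CTCF motif was less frequent at members than at CTCF-free regions without H3K27ac, which were taken at any distance from a TSS. A match to the CTCF core consensus, allowing 2 mismatches, was in 15.2% ± 0.11 of member summit windows and 9.43% ± 0.22 of their flanking windows. At CTCF-bound distal active regions it was in 74.9% ± 0.84 of summit windows. At CTCF-free regions without H3K27ac it was in 58.5% ± 0.024 of summit windows, although those regions, like members, overlapped no CTCF peak. At CTCF-free active promoters the share was 15.9% ± 0.98, close to that of members.

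Other motifs, some of factors known in thymocytes, went both ways at the member summits. The MYB core, AACNGCC, was more frequent there, in 10.2% of summit windows and 6.52% of flanking windows. The AP-1 letters TGANTCA were slightly more frequent, in 6.81% and 5.95%, and the motifs that follow were less frequent. The Ikaros core TGGGAA was in 13.3% of summit windows, against 18.2% of flanking windows. The GATA core AGATAA was in 8.39% of summit and 10.2% of flanking windows. The ROR half-site AGGTCA was in 10.0% of summit and 12.7% of flanking windows. The CCAAT box was in 14.2% of summit and 22.6% of flanking windows, and the YY1 core AAGATGG in 2.93% of summit and 4.49% of flanking windows.

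A search over all 2080 words of 6 letters, each counted with its reverse complement, ranked ETS and E-box words first. The RUNX and TCF/LEF cores came lower. CAGGAA had the largest difference, at 21.2 percentage points, followed by AGGAAG at 20.5, and both hold the GGAA centre of an ETS site. The second E-box form CAGGTG ranked 3, the E-box CAGCTG ranked 4, the ETS core GGAAGT ranked 6 and the RUNX core TGTGGT ranked 12. The other words of the first 10 were AGCTGC at 17.2 points, then ACAGGA at 15.5 points, then AGCAGC at 14.5 points, and GCTGCA at 13.6 points, the same as CAGCAG to this rounding. The median over all words was 0.150, and it was higher for words with more G and C letters, being −7.63 for words with 0 and 2.27 for words with 6. The TCF/LEF core ranked 95, and the Ikaros core 2006.

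Windows with 2 or more families were more frequent at members than in their flanking windows or in the other classes. Each single motif was also more frequent at members. Whether the families stood together more often than their single shares would give was not tested. The families counted were the ETS core, the RUNX core and the E-box in either form, CAGCTG or CAGGTG. At least 2 of these were in 29.9% and 31.1% of member summit windows (lists 1 and 2), against 8.03% and 8.28% of their flanking windows. CTCF-bound distal active regions had at least 2 families in 17.2% and 17.5% of summit windows, and CTCF-free active promoters in 10.3% in both lists. All 3 families were in 134 member windows from list 1 summits and 129 from list 2 summits. Members without any of the 3 numbered 892 and 862. Rad21 fold moved little with the number of families: the medians for 0, 1, 2 and 3 families were 6.04, 6.14, 6.46 and 6.69 in list 1, and 7.23, 7.90, 8.29 and 7.88 in list 2.

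Rad21 enrichment at members was low beside that at CTCF sites. The fold, the authors' ratio of a peak over local background, had a median of 6.16 in list 1 and 7.82 in list 2 over members, with ranges of 2.62 to 42.5 and 2.87 to 59.5. CTCF-bound distal active regions had medians of 15.2 in list 1 and 18.2 in list 2. The ratio of the medians was 0.405 and 0.429, or −1.26 ± 0.057 on the log2 scale (SD, n = 2). Only 122 members (3.18%) in list 1 and 170 (4.43%) in list 2 exceeded the median of CTCF-bound distal active regions. Members were close to the other CTCF-free classes: the ratio was 1.10 and 1.13 to promoters and 1.00 and 1.04 to regions without H3K27ac.

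**Figure D2:**
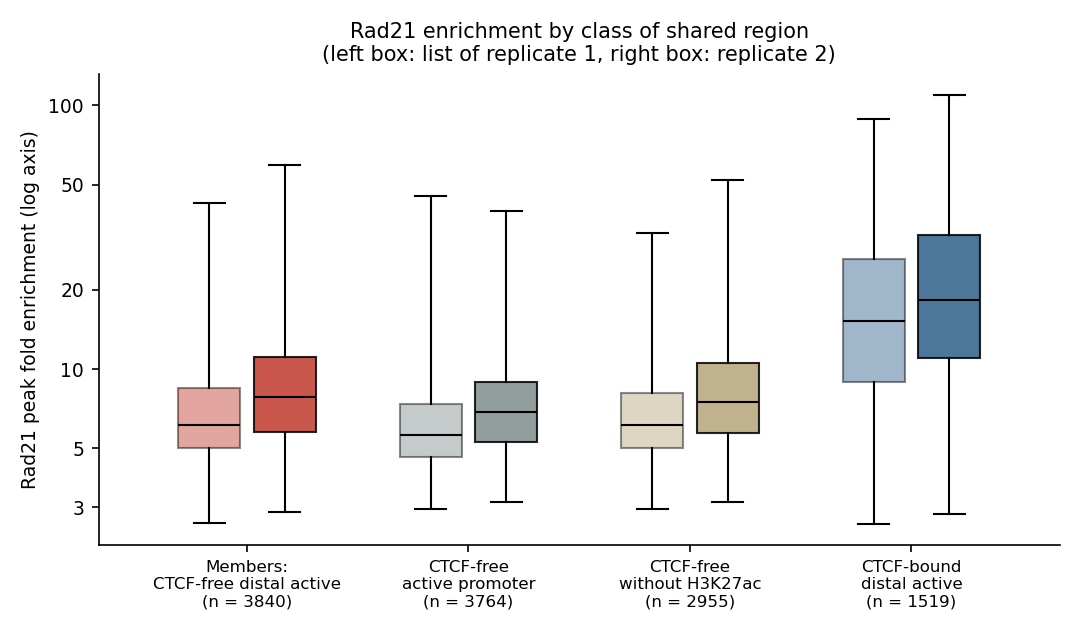
Rad21 peak fold enrichment (log axis) for members and 3 other classes of shared Rad21 region, with the list of replicate 1 left and replicate 2 right in each pair; boxes give quartiles and median, whiskers the lowest and highest region. Members have medians of 6.16 and 7.82, and CTCF-bound distal active regions 15.2 and 18.2.

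Rad21 positions were less sharply shared between replicates at members than at CTCF-bound regions, and more sharply than at CTCF-free active promoters. The summits of both lists lay a median of 42 bp apart at members, against 59 bp at CTCF-free active promoters, 12 bp at CTCF-bound distal active regions and 22 bp at CTCF-free regions without H3K27ac. The folds of both lists had a Spearman correlation of 0.456 across the 3840 members, 0.381 across CTCF-free active promoters, 0.406 across CTCF-free regions without H3K27ac and 0.835 across the 1519 CTCF-bound distal active regions, as a description in which all regions share the same libraries. Member regions had a median width of 371 bp, from 143 to 2603 bp.

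**Figure D3:**
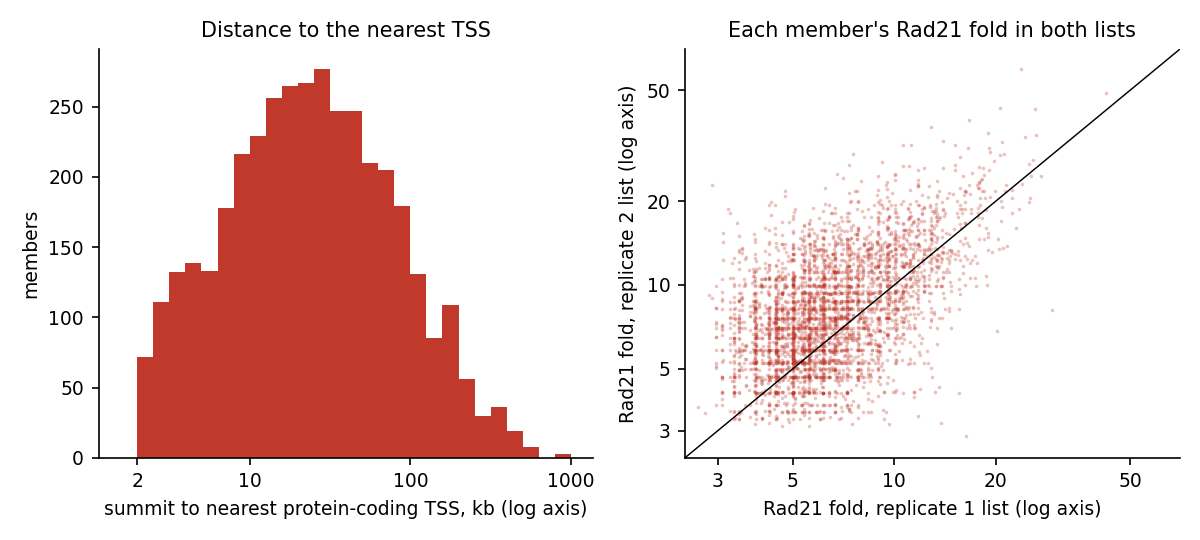
Left, members by distance from the replicate 1 summit to the nearest protein-coding TSS (kb, log axis); right, each member's Rad21 fold in the lists of replicate 1 and replicate 2 (log axes), with the line of equal folds. Most members lie 10 to 100 kb from a TSS, and their folds scatter widely between lists.

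Members were divided evenly between introns and intergenic sequence. Of the list 1 summits 1863 (48.5%) lay in introns of protein-coding genes, 127 (3.31%) in exons and 1850 (48.2%) between genes, and the list 2 summits gave 48.6%, 3.26% and 48.2%. For 1579 of the 1863 intronic members (84.8%) the nearest TSS belonged to the gene they lay in. The median distance to the nearest protein-coding TSS was 23439 bp in list 1 and 23444 bp in list 2, and 2000 bp was the minimum by choice. Within 10000 bp lay 981 members (25.5%), and 151 (3.93%) lay beyond 200000 bp. The median list 1 fold was 6.047 within 10000 bp and 6.69 beyond 200000 bp, and in list 2 it was 7.53 and 8.69. On the threshold itself, the 198 members over 2000 and up to 3000 bp from a TSS had median folds of 5.89 and 7.53, and the 337 regions over 1000 and up to 2000 bp away, which were not members, had 5.74 and 6.92. A TSS of another annotated biotype lay within 2000 bp of 411 members (10.7%), whose median folds of 6.12 and 7.61 were near those of the other 3429, at 6.19 and 7.87.

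Few members lay within 500 bp of a CTCF peak, where overlap itself was excluded by the rule. The median gap from a member to the nearest CTCF peak was 10768.5 bp. The same gap was 8989 bp at CTCF-free active promoters and 15118 bp at CTCF-free regions without H3K27ac. Within 500 bp of a CTCF peak lay 141 members (3.67%), within 5000 bp 1198 (31.2%) and within 50000 bp 3396 (88.4%). The 141 members within 500 bp had median folds of 5.66 and 7.26, against 6.19 and 7.88 for the 3699 farther away.

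The members lay in acetylated regions of a range of widths. Counted once per member, their H3K27ac regions had a median width of 4504.5 bp, against 2553.5 bp for CTCF-free active promoters and 3242 bp for CTCF-bound distal active regions. This count weights regions with several members, and the 2285 H3K27ac regions with 1 member had a median width of 3090 bp. The 3840 members fell in 2894 H3K27ac regions, 17.8% of the shared H3K27ac regions, and 609 of these held 2 or more members. In this way 1555 members (40.5%) shared their H3K27ac region with another, at a median spacing of 1741.5 bp. Of the 7870 H3K27ac regions that stayed more than 2000 bp from a TSS, 2540 (32.3%) held a member. The list 1 summit of a member lay inside an H3K27ac peak of replicate 1 in 97.4% of cases and of replicate 2 in 82.3%. CTCF-free active promoters were close to members, at 95.0% and 86.6%. These shares were 81.8% and 47.5% for CTCF-bound distal active regions. Both of these classes were likewise chosen for overlap with shared H3K27ac. In all, 936 members (24.4%) shared their H3K27ac region with a CTCF-bound Rad21 region.

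Rad21 fold was slightly higher where an acetylated region held many members. The 208 members in the 33 regions with 5 or more had median folds of 6.69 and 8.41, against 6.14 and 7.61 for members alone in their region. The median gap to a CTCF peak was 6347 bp for those 208 members and 12001 bp for members alone in their region.

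The H3K27ac regions with most members lay at genes of lymphocytes and at genes of general function. Each region named here was 1 peak in H3K27ac replicate 1, so its extent as a single region rests on that list. Replicate 2 had 4 peaks in the Ets1 region, 7 in Clec16a, 23 in Mad1l1, 2 at Mir142, 15 in Znrf1 and 3 at Trbc1. The ranking was not repeated with replicate 2 alone. The region over Ets1, an ETS family factor needed for T cell development (chromosome 9, 32500822 to 32569126), held 11 members with list 1 folds of 5.23 to 20.8 and list 2 folds of 4.71 to 32.5. A region within Clec16a (chromosome 16, 10663411 to 10707970) also held 11, and one within Mad1l1, a spindle checkpoint gene (chromosome 5, 140665516 to 140769491), held 10. A region that contains Supt4h1 and the microRNA gene Mir142 (chromosome 11, 87556306 to 87573861) held 9. The region in Znrf1, a ubiquitin ligase gene (chromosome 8, 114069821 to 114133721), held 8. The region over the T cell receptor beta constant genes Trbc1 and Trbc2 (chromosome 6, 41482046 to 41514337) held 8 as well, with list 1 folds of 3.35 to 16.8 and list 2 folds of 4.52 to 21.1. Mir142, Trbc1 and Trbc2 were not in the protein-coding set, so their TSSs did not count in the distance rule.

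Genes nearest to members were few, and some had many. The nearest protein-coding TSS of the 3840 members belonged to 1817 of 22202 genes (8.18%), and this share was 12.3% with Rad21 replicate 2 alone and 1.5% with the stricter H3K27ac threshold. Among the 4101 genes nearest to an H3K27ac region that stayed distal, 1696 (41.4%) were nearest to a member. The 157 genes with 5 or more members held 1167 members (30.4%). Ets1 had 22, from 2355 to 235388 bp away, with list 1 folds of 3.87 to 20.8 and list 2 folds of 3.96 to 32.5. Map3k1, a kinase gene of stress signalling, and Lef1, a TCF/LEF factor, had 16 each. Runx1, a RUNX factor, Satb1, a chromatin organiser of thymocytes, and Sox4, an HMG box factor, had 15 each. Btg1, an antiproliferative gene, had 14. Of 7 genes with 13 each, Klf13, Ccdc162 and Rreb1 had the largest summed list 1 fold. Nearest is a statement of position and does not say which gene a region acts on.

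Genes of the T cell receptor and its coreceptors were often nearest to members. Because members were chosen by H3K27ac of these same cells, the gene lists describe where they lie and are no test of the lists. Of 18 annotated genes in this list, 15 (83.3%) were nearest to a member, with 61 members in all, against 8.18% of all genes. Of the 12 that were nearest to a distal H3K27ac region, 11 were nearest to a member, against 41.4% of all such genes. Cd3e and Cd3d, which encode chains of CD3, had 3 and 1 members, and Cd247, the zeta chain, had 9. The coreceptor genes Cd8a and Cd8b1 had 5 and 6. Cd4 had 2, with low folds of 2.76 and 4.53 in list 1 and 3.46 and 5.29 in list 2. Zap70 and Lat, a kinase and an adaptor of receptor signalling, had 2 each. Lck, Cd3g and Vav1 had none.

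The list of regulators of the double-positive stage had the most members. Of 23 annotated genes 17 (73.9%) had 1 or more, with 130 members in all, against 8.18% of all genes. Of the 18 nearest to a distal H3K27ac region 17 had one, against 41.4% of all such genes. Tcf7, which encodes TCF1, had 8, Lef1 had 16, Bcl11b, a T lineage commitment factor, had 12, Satb1 had 15, Ets1 had 22 and Runx1 had 15. Ikzf1, which encodes Ikaros, had 8, and Tcf12, which encodes the E protein HEB, had 1. Rag1, Rag2, Tcf3, Zbtb7b and Notch1 were among the genes of this list without a member.

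Genes of thymocyte survival, migration and maturation were also often nearest to members, 14 of 16 (87.5%) with 43 members, against 8.18% of all genes. Of the 13 nearest to a distal H3K27ac region 12 were nearest to a member, against 41.4% of all such genes. Ccr9, a thymic chemokine receptor gene, had 3 with folds up to 17 in list 1 and 25.2 in list 2. Cxcr4 and the survival gene Bcl2l1 had 4 each, and Bcl2l11, which encodes the death factor Bim, had 4. Bcl2 had 2, and Cd69, Klf2 and S1pr1, which are used at later stages of maturation, had 1 each.

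Lists for other cells held smaller shares of genes with members than the thymocyte lists, and most were not below the 8.18% of all genes. The shares were 16.7% for mature T cell and for myeloid genes, and 10% for B cell and for stromal genes. Of 12 genes of mature effector and regulatory T cells 2 had a member, Il2ra with 3 and Cd40lg with 1. Among B cell genes 1 of 10 had members (Ebf1, with 2), among myeloid genes 2 of 12 (Itgam with 1 and Fcgr3 with 2), and among genes of thymic stroma and endothelium 1 of 10 (Pecam1, with 4). None of 12 neuronal and none of 10 liver genes had one. Few genes of these lists were nearest to a distal H3K27ac region, and of those that were, 2 of 3 mature T cell, 2 of 3 myeloid, 1 of 3 B cell, 1 of 3 stromal and 0 of 1 neuronal genes had a member, against 41.4% of all such genes. Among cohesin and CTCF genes 3 of 13 (23.1%) had a member: Nipbl with 2, Wapal with 1 and Ctcf with 2. Cytosolic ribosomal protein genes, which are transcribed strongly in all cells, had members at 9 of 82. These lists check the label on the cells only by position, since no RNA was measured in the lists used here.

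**Figure D4:**
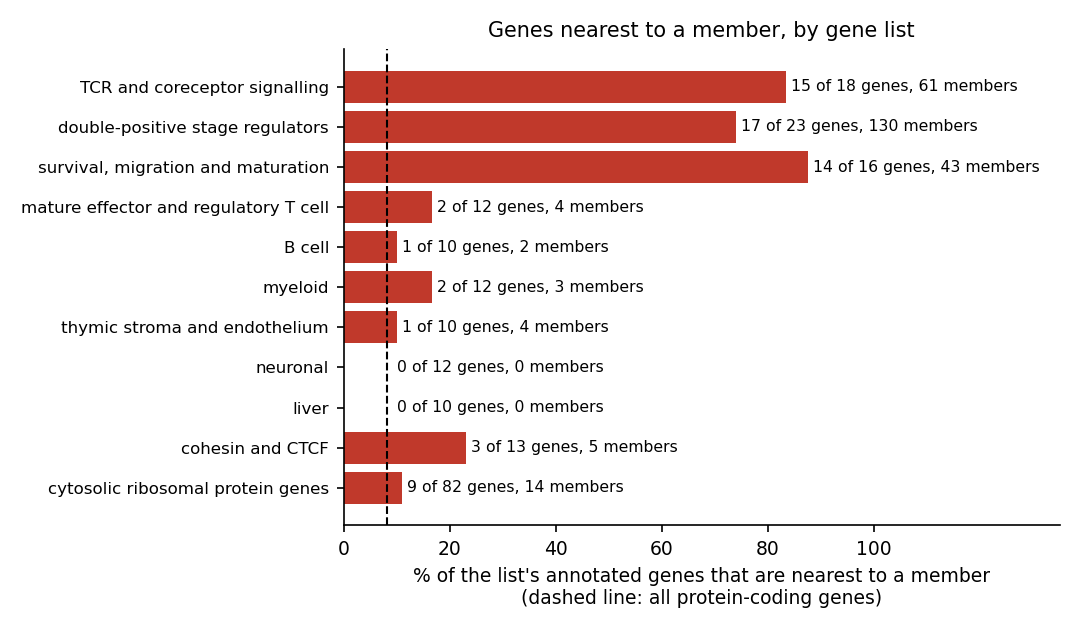
Percent of the annotated genes of each list whose TSS is the nearest to at least 1 member, with counts beside the bars; the dashed line is the 8.18% of all protein-coding genes. The 3 lists of thymocyte genes stand at 73.9% to 87.5%, and the others at 0 to 23.1%.

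Around 6 of these genes members had lower median folds than CTCF-bound Rad21. Within 300 kb on either side of the first TSS of Ets1 lay 30 members, whichever gene was nearest, with median folds of 6.81 and 10.2, and 15 CTCF-bound regions with 16.1 and 16.4. At Lef1 there were 21 members with medians of 7.06 and 9.51 and 15 CTCF-bound regions with 16 and 16.5. At Cd8a there were 17 members with 8.39 and 8.47 and 20 CTCF-bound regions with 13.6 and 21.9. Satb1 had 6 members with 5.39 and 11.3 and only 2 CTCF-bound regions, with 16.2 and 15.4. At Runx1 there were 14 members with 8.54 and 12.95 and 8 CTCF-bound regions with 14.4 and 17.2, and at Bcl11b 12 members with 5.62 and 7.80 and 16 CTCF-bound regions with 13.9 and 12.9.

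**Figure D5:**
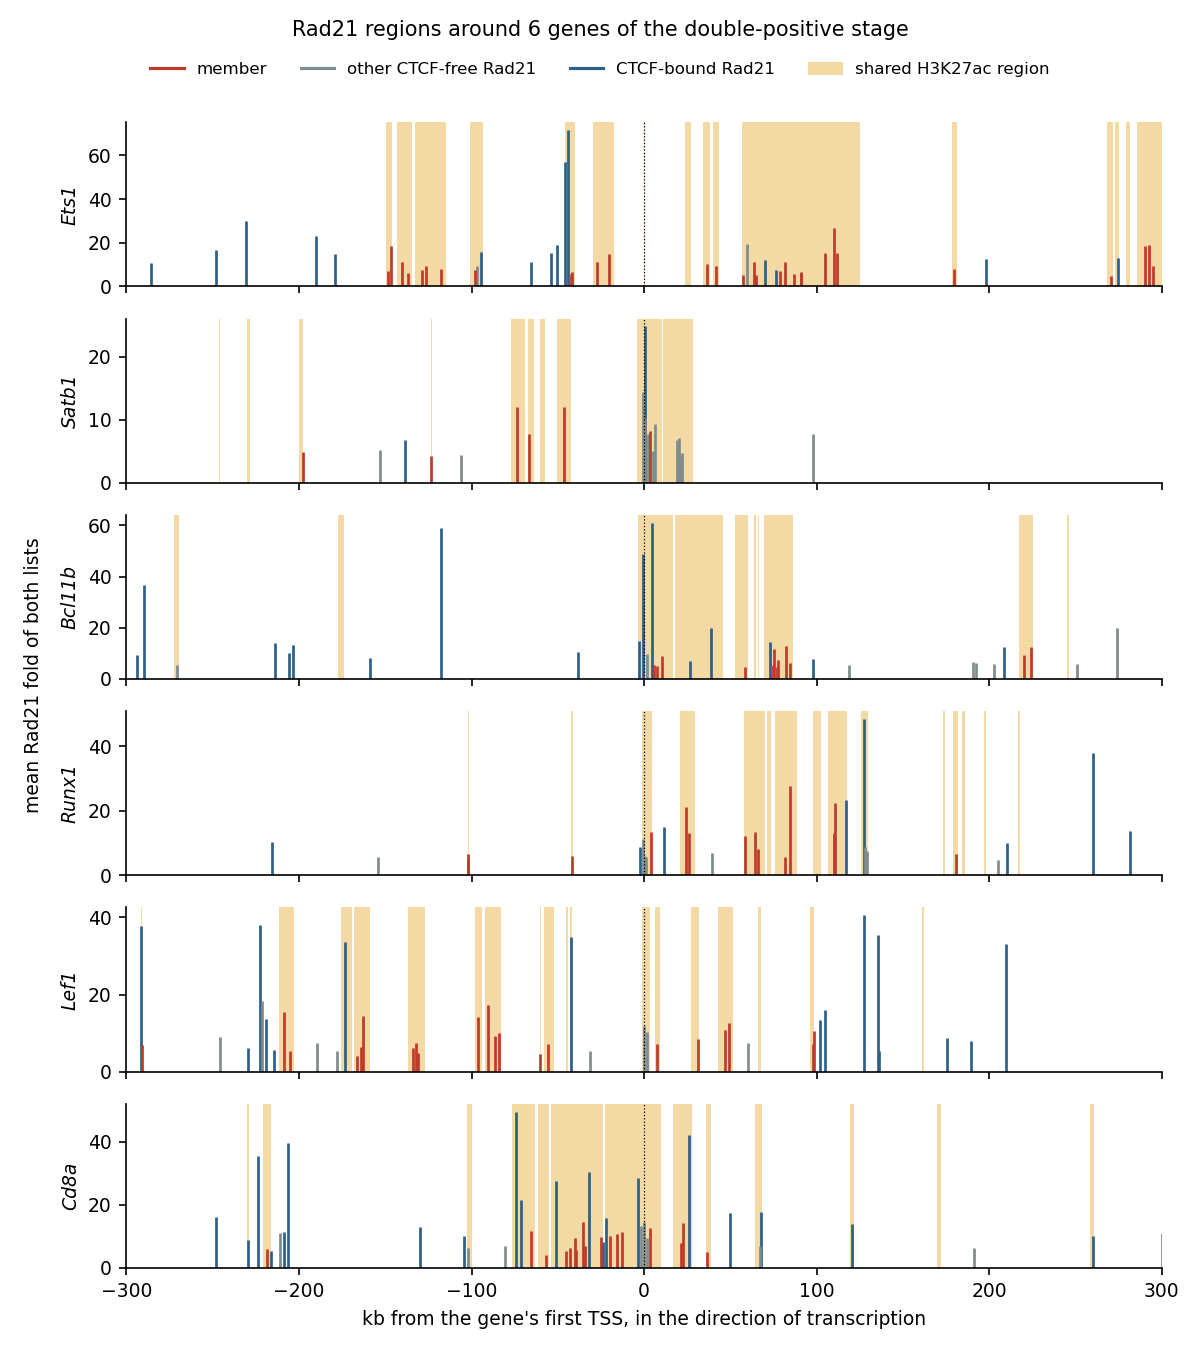
Shared Rad21 regions within 300 kb of the first TSS of 6 genes, by distance in the direction of transcription (kb); height is the mean fold of both lists, red lines are members, grey lines other CTCF-free regions, blue lines CTCF-bound regions, and shaded blocks shared H3K27ac regions. Members overlap the acetylated blocks by their definition, and the tallest line at each gene is CTCF-bound.

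The members with the highest Rad21 fold reached the range of CTCF sites. The member with the best worse rank of both lists (ranks 1 and 2) lay 140488 bp upstream of Tbl1xr1, a corepressor subunit gene, with folds of 42.5 and 48.6 and a CTCF peak no closer than 138750 bp. The next, in an intron of Dok6 and nearest to the costimulatory receptor gene Cd226 (chromosome 18, 89509772 to 89510628), had 26.1 and 42.7. The member in Ptpn14, a phosphatase gene, had 26.3 and 34.5, and the one nearest to Cep97, a centrosome gene, had 24.4 and 33.96. Of the first 10, 1 is not reported here, and the others were nearest to Ssbp2 (25.7 and 28.1), Smndc1 (21.1 and 29.4), Scml4 (25.1 and 27.2), Ets1 (20.8 and 32.5) and Gm9869 (20.6 and 29.3). The lowest of these 10 in list 1, 20.6, was above the list 1 median of CTCF-bound distal active regions.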

How the data were processed

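Peak lists of 5 ChIP-seq samples were used, 1 per sample: narrow peaks for CTCF (35345) and Rad21 (38430 and 48462) and broad peaks for H3K27ac (38700 and 24765), on chromosomes 1 to 19 and X. The submitters' processing notes name MACS2 2.1.0, Bowtie 1.0.0 and build mm9; their roles, the thresholds and any control were not given in the sources used. The fold is a ratio over local background, deposited as the authors' caller wrote it, and was used only within a list. The −log10 p and −log10 q values and the score are as deposited by the authors; −log10 q entered alternatives, and the others were not used. Depth is unknown.

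Peaks with the same coordinates were counted once at the highest fold. TSSs came from protein-coding transcripts of 22202 genes in GENCODE vM1 on NCBIM37, and 0 peaks ran past a chromosome end. Of the listed symbols, Ptcra, Tespa1 and Gfi1 had no protein-coding model under that name. Motifs (13 by letters, on both strands, and the CTCF core) were counted in windows of 100 bp on either side of summits and of points 1000 bp away. Other Rad21 classes were CTCF-free active promoters (3764), CTCF-bound distal active regions (1519) and CTCF-free regions without H3K27ac (2955), where promoter means 2000 bp or less from a TSS. Code was tested on simulated data and used Python 3.11.15, pandas 2.3.3 and pysam 0.24.0.

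The members, gene lists and motifs were chosen with earlier results of these data known. Named are the 10 members with the best worse rank, the 10 genes with most members (ties by summed list 1 fold), up to 8 genes with a member per list, the 6 H3K27ac regions with most members (ties by width), the most isolated and most distant members, and the first 10 words; the 3 windows with all families, the genes listed without a member and the map of 6 loci were added after values were seen. Some single results that the naming rule would give are not reported here. Alternatives were stricter q values, overlap of 50%, other distances to CTCF and TSS, all biotypes, autosomes, other windows and flanks, and each replicate left out.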

Additional observations from a re-analysis of the deposited data

How the results depend on the processing

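No motif difference changed its sign in the alternatives run, and the other results were not scored for direction. Of 164 alternative values 82 moved by less than the SD between results from each Rad21 list alone (for the number of members, by less than 1.5 times). The other 82 moved by more. Leaving out each Rad21 or H3K27ac replicate gave 3525 to 7576 members, 47.6% to 53.1% distal among CTCF-free active regions, a fold ratio of 0.350 to 0.433, 47.6% to 49.3% intronic summits, a median of 22107 to 24022 bp to a TSS and of 10045 to 11053.5 bp to a CTCF peak, 27.4% to 59.4% of members sharing their H3K27ac region, and 7.92% to 12.3% of genes; in the same runs the summit minus flank difference was 9.60 to 13.3 points for the RUNX core, 14.2 to 15.8 for the ETS core, 14.2 to 20.01 for the E-box and 4.72 to 5.69 for the TCF/LEF core. The highest count and the highest gene share came without Rad21 replicate 1, and the lowest share of members in a common H3K27ac region came without H3K27ac replicate 1.

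With Rad21 −log10 q of at least 5 there were 2204 members, 55.6% distal, a fold ratio of 0.491, 47.1% intronic, 25571 bp to a TSS, 30.9% sharing, 5.56% of genes, and differences of 14.8 (RUNX), 21.4 (E-box) and 5.20 (TCF/LEF) points. With H3K27ac −log10 q of at least 5 there were 581 members, 53.6% distal, 26313 bp to a TSS, 9524 bp to a CTCF peak, 50.1% sharing, 1.5% of genes, and differences of 9.90 (RUNX), 12.6 (ETS) and 4.69 (TCF/LEF) points. CTCF peaks limited to q under 0.05 gave 49.2% distal, a ratio of 0.368, 15413.5 bp to a CTCF peak and 5.44 points for TCF/LEF. Excluding CTCF within 1000 bp gave 53.1%, a ratio of 0.509, 23851.5 bp to a TSS, 12318 bp to a CTCF peak and 5.83 points for TCF/LEF. The overlap of 50% gave 50.6% distal. A TSS distance over 1000 bp gave 54.9% distal, 49.9% intronic, 20246 bp, 10401 bp, and 15.6 (ETS) and 5.33 (TCF/LEF) points, and one over 5000 bp gave 44.3%, 46.8%, 28731 bp, 11604 bp, 15.6 and 5.36 points. TSSs of every biotype gave 45.1% distal, 24423 bp, 11107 bp, and 16.2 (ETS) and 5.93 (TCF/LEF) points, and autosomes alone gave 50.5% distal and 5.54 points for TCF/LEF. Windows of 50 bp on either side gave 9.51 (RUNX), 10.6 (ETS), 13.2 (E-box) and 3.74 (TCF/LEF) points, where a shorter window holds fewer matches by its length, and flanks at 5000 bp gave 15.4 (ETS) and 4.43 (TCF/LEF) points. The distal share and the distance to a TSS change with the TSS distance rule by definition. The gap to a CTCF peak likewise changes with the CTCF rule. The cause of the remaining shifts was not tested.

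Classes were compared within each Rad21 list, and no test, paired or unpaired, was made. The limits are 2 lists for Rad21 and H3K27ac and 1 for CTCF, unknown depth, H3K27ac lists that hold many peaks of weak q, and absence of a CTCF peak resting on a single list.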

Other observations

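Few members stood in isolated acetylated clusters, that is, H3K27ac regions stitched within 12000 bp and at least 200000 bp from the next cluster on both sides. Of the 3840 members 82 (2.14%) did, in 63 of 627 isolated clusters (10.0%), whereas 2295 of all 11823 clusters (19.4%) held a member. The 82 isolated members had median folds of 5.80 and 7.57, against 6.19 and 7.86 for the 3758 others, and lay a median of 19329 bp from a CTCF peak, against 10694 bp. The most isolated were 2 members in an intron of Tspan14, with neighbouring clusters at least 2722446 bp away and folds of 3.48 and 7.82 for one and 5.58 and 7.35 for the other.

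The members farthest from a protein-coding TSS were 2 between genes nearest to Trps1, at 927499 and 884704 bp, with folds of 4.26 and 12.9 and of 4.83 and 7.03. Another lay 799430 bp from Diap2 on chromosome X, with folds of 9.45 and 22.7, and 2 lay 609312 and 608900 bp from Cntn5.

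Members were spread unevenly over chromosomes, from 0.384 per Mb on chromosome X to 2.74 on chromosome 11, and all shared Rad21 regions ran in the same direction there, at 3.86 and 21.7 per Mb. As a share of CTCF-free regions in H3K27ac, members ranged from 41.4% on chromosome 19 to 56.9% on chromosome 16.

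CpG-rich summits were found among members: 225 (5.86%) had 10 or more CpG in the summit window, with median folds of 6.21 and 7.35, against 6.15 and 7.88 for the other 3615. The words of 6 letters that were least frequent at member summits were runs of A and T, led by AATAAA with a difference of −12.0 percentage points.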
